A study of Homo sapiens with 36 samples.

Results

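A set of 10 genes for the shape of the endoplasmic reticulum (ER) and its contacts with other membranes was followed in 6 human cancer cell lines, each split into its pseudopods and its cell bodies. They were taken by name: ESYT1, ESYT2, VAPA, VAPB, RTN3, RTN4, REEP5, ATL3, CKAP4 and STIM1, with every probe set the platform annotation gives them. This came to 10 of 19775 genes with a probe set and 30 of 54593 probe sets, and all 10 genes were among the 15399 tested. Expression was read on 36 Affymetrix arrays, 3 for each of 12 groups. The groups were the pseudopod (PS) fraction and the cell body (CB) fraction of U87 and U251 (glioblastoma), HT1080 (fibrosarcoma), DU145 (prostate carcinoma), MDA231 (breast carcinoma) and MDA435 (a line sold as breast carcinoma whose origin is melanocytic by later typing). The labels name no drug treatment and no engineered allele for any line. All cells stood for 24 h on a porous filter in medium with 10% fetal bovine serum, DMEM for U87, U251 and HT1080 and RPMI-1640 for the others, and the RNA below the filter (pseudopods) and above it (cell bodies) was collected by scraping. The labels do not say whether the 3 arrays of a group came from separate cultures, so p-values measure the spread between these arrays, which may be technical.

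The ER is a single membrane system of flat sheets and branched tubules that reaches towards the cell edge along microtubules. Reticulons and REEP proteins bend its membrane into tubules, atlastins fuse tubules into a network, and CKAP4 (CLIMP-63) holds sheets open. At contact sites the ER is held close to other membranes without fusing with them: the extended synaptotagmins (ESYT) tether it to the plasma membrane, STIM1 senses calcium in its lumen and opens plasma membrane channels there, and VAPA and VAPB recruit lipid transfer proteins to many partner organelles. The RNAs of membrane proteins are often translated on the ER surface, whereas proteins anchored by a segment at their C-terminus, such as the VAPs, are released from the ribosome before they enter the membrane.

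Of the 10 genes, 7 were lower in pseudopods, 2 were higher and ATL3 did not pass the test. ESYT1 fell most, by 1.95 ± 0.16 on the scale of log2(intensity + 16) (SE; 3.88-fold lower), averaged over the 6 lines. REEP5 (2.06-fold lower), RTN3 (1.95-fold), ESYT2 (1.93-fold), CKAP4 (1.87-fold) and STIM1 (1.61-fold) followed, and RTN4 was 1.24-fold lower. VAPB was 1.31-fold and VAPA 1.14-fold higher in pseudopods. Of all genes tested, 20.8% were called lower and 29.5% higher (limma, Benjamini-Hochberg adjusted p under 0.05), and 4.32% were lower by at least 2-fold, as were ESYT1 and REEP5. REEP5 lay close to that limit. Its log2 change was -0.88 with equal array medians and -0.95 with the mean of all its probe sets, both short of 2-fold. The median change was -0.79 for the 10 genes and 0.05 for all genes. With array medians made equal the median of all genes moved to 0.17 and that of the 10 genes to -0.65. Folds come from mean differences on the log2(intensity + 16) scale and need not equal the ratio of the printed mean intensities. Every array started from 100 ng of RNA and was scaled to a common mean. A change is therefore one of relative abundance within the RNA of a fraction, not of amount per cell. The fractions are bulk, so differences between the cells of a line cannot be read from them.

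**Figure D1:**
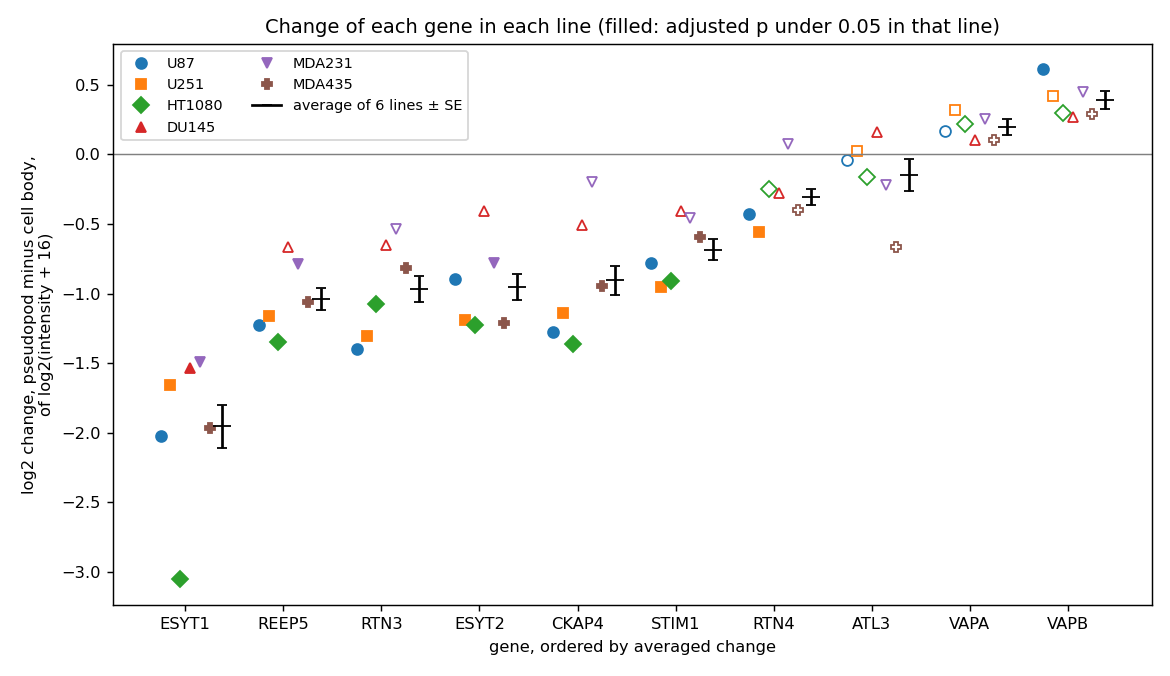
Log2 change (pseudopod minus cell body, of log2(intensity + 16)) of each gene in each of 6 lines, with the average over lines ± SE in black; filled marks have an adjusted p under 0.05 in that line. ESYT1 lies lowest in all lines, from -1.50 in MDA231 to -3.05 in HT1080, while all 12 marks of VAPA and VAPB lie above 0.

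Before these results, the arrays were checked. Median intensity ran from 18.2 to 27.4 in pseudopod arrays and from 22.2 to 30.6 in cell body arrays, and no 2 arrays were identical. RNA45SN5, the precursor of ribosomal RNA, and the nuclear RNA MALAT1 were lower in pseudopods (log2 changes -3.25 ± 0.23 and -0.69 ± 0.14, SE). In U87 pseudopod replicate 3, however, RNA45SN5 was at 408.2, against 487.3 to 645.6 in U87 cell bodies, while the other U87 pseudopod arrays had 85.2 and 15.3. Epithelial markers differed between arrays of the same group in MDA231, MDA435 and DU145. The summed intensity of 8 of them in MDA231 was 6916, 6483 and 11037 in pseudopod replicates 1, 2 and 3, against 6093, 10741 and 5316 in cell body replicates 1, 2 and 3. In MDA435 it was 10018, 7687 and 1788 in pseudopods, against 1395, 5878 and 10819 in cell bodies. The 6 melanocytic markers ran the other way in these MDA435 arrays, with sums of 4388, 7271 and 7597 in pseudopods, against 7965, 5616 and 4664 in cell bodies, and were at most 678.9 in the other lines. In DU145 the epithelial sum was 10332, 13963 and 12522 in pseudopods, against 13850, 13910 and 10052 in cell bodies, and the adhesion gene CDH1 alone was at 319.0, 1489 and 1350 in pseudopods, against 2237, 2020 and 857.1 in cell bodies. The 3 blood cell markers summed to between 57.2 and 135.4 in all arrays. Thus 7 arrays stand apart: pseudopod replicate 3 of U87, pseudopod replicate 3 and cell body replicate 2 of MDA231 (high epithelial sum), pseudopod replicate 3 and cell body replicate 1 of MDA435 (low), and pseudopod replicate 1 and cell body replicate 3 of DU145 (low). Standing apart here means differing from the other 2 arrays of a group, and which arrays are typical of a line was not tested. In MDA435 it was judged by the epithelial sum alone. By the melanocytic sum pseudopod replicate 1 (4388) differed from the other 2 (7271 and 7597), and it was kept. In MDA435 the arrays set aside had the highest melanocytic sum of their fraction (7597 and 7965), with CDH1 at 33.2 and 32.8. The MDA435 arrays that were kept had CDH1 from 921.5 to 2463. The labels do not account for these differences. Whether any array holds RNA of another line was not tested, and neither was the part of the 7 arrays in the results. They were picked after their values were seen, and where a call or an overlap of fractions changed without them, with 29 arrays, this is given beside the result. Without them the same 7 genes were lower and the same 2 higher on average, and the change of ESYT1 was -2.07.

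The upstream sequence of the 2 genes that fell at least 2-fold and the 2 that rose is shown to let a reader compare them. These are the 250 bases before the start in RefSeq's table for GRCh38.p14, read 5′ to 3′ on the gene's strand, at chr12:56128017-56128266 (+) for ESYT1, chr5:112922228-112922477 (-) for REEP5, chr20:58388979-58389228 (+) for VAPB and chr18:9913766-9914015 (+) for VAPA. Capitals mark CCAAT and CCACG on either strand, the 2 parts of the ER stress response element, which activates genes of ER folding proteins.
ESYT1: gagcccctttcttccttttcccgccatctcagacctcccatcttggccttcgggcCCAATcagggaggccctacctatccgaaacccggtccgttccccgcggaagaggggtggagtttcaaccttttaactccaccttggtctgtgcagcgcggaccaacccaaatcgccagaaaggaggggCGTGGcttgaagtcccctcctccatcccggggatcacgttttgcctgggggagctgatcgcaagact
REEP5: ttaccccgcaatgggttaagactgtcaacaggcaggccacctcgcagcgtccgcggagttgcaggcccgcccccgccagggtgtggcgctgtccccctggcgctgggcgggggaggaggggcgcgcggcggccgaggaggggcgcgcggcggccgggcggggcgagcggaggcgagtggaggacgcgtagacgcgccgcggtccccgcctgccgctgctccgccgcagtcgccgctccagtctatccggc
VAPB: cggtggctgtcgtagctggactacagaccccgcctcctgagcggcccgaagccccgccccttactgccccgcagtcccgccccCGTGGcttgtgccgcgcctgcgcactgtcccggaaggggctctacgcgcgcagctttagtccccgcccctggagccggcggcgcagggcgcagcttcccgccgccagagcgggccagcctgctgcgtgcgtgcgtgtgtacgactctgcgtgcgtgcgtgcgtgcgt
VAPA: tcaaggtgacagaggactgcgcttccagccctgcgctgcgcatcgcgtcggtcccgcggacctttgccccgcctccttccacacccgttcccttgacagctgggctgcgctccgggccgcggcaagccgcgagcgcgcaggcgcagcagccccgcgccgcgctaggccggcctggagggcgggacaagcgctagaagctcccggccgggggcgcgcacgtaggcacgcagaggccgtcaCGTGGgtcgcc
CCAAT occurred in 32.0% of 35116 such windows of all genes and, of these 4, in that of ESYT1, whose CCAAT begins 195 bases before the start. CCACG occurred in 33.5% of all windows and in those of ESYT1, VAPB and VAPA. The full element, CCAAT followed after any 9 bases by CCACG, searched on both strands, was in 0.074% of all windows and in 0 of the 20 windows that the table gives for the 10 genes. GC content was 60% for ESYT1, 77.2% for REEP5, 73.6% for VAPB and 74.4% for VAPA, against a median of 58.0% over all windows.

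ESYT1 encodes a tether that spans from the ER to the plasma membrane in response to cytosolic calcium and carries lipids between them. In HT1080 it had intensities of 122.1, 75.7 and 78.4 in the 3 pseudopod arrays, against 876.5, 945.1 and 781.7 in the 3 cell body arrays. In U251 the values were 119.8, 133.1 and 89.7 in pseudopods, against 412.0, 336.4 and 427.8 in cell bodies. The fractions did not overlap in either line, and the arrays of a fraction lay close together. In U87 the pseudopod arrays were spread more widely, at 148.6, 52.9 and 350.9, against 652.7, 683.9 and 585.1 in cell bodies, and the highest was replicate 3, in which RNA45SN5 was high too. Without that array the change in U87 was -2.62, against -2.03 with it. In DU145 ESYT1 was at 428.0, 329.1 and 343.8 in pseudopods, against 1000.9, 901.4 and 1415 in cell bodies. These 2 lines also kept the fractions apart, with the highest pseudopod array below the lowest cell body array. In MDA231 the pseudopod arrays had 257.5, 234.1 and 353.9, against 1130, 617.5 and 764.0 in cell bodies. In MDA435 they had 296.6, 82.2 and 119.3, against 673.7, 460.0 and 734.6 in cell bodies. Without the arrays that stand apart the change was -1.85 in MDA231 (-1.50 with them), -1.77 in MDA435 (-1.96) and -1.46 in DU145 (-1.53), and all were still called. ESYT1 thus had no overlap between fractions in 6 of 6 lines, as had REEP5 (3.90% of all genes). Over all arrays ESYT1 averaged 200.9 ± 122.1 in pseudopods and 744.4 ± 272.8 in cell bodies (SD, n = 18 each; limma, adjusted p = 2.55e-11), and only RNA45SN5 of the 15399 genes tested had a lower log2 change. It was the only one of the 10 genes called in all 6 lines, with adjusted p-values from 1.3e-06 in HT1080 to 0.0259 in DU145. ESYT1 has 1 probe set, so no second one can be set beside it.

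ESYT2, a relative of ESYT1 that sits at plasma membrane contacts also in resting cells, fell by 0.95 ± 0.09 (SE; limma, adjusted p = 9.77e-10). Its intensity ran from 381.3 to 1516 (median 834.3) over pseudopod arrays and from 899.5 to 2270 (median 1519) over cell body arrays. The clearest separation was in HT1080, with 939.6, 850.6 and 844.0 in pseudopods against 2020, 2270 and 1930 in cell bodies, and in U251, with 448.8, 381.3 and 421.1 against 1002, 1015 and 899.5. In DU145 the fractions overlapped, since pseudopod replicate 1 had 1516 and cell body replicates 1 and 2 had 1344 and 1266, and the change there did not pass (-0.40, adjusted p = 0.356, limma). In MDA231 they overlapped as well, but the change passed (-0.78, adjusted p = 0.0362). Pseudopod replicate 1 of DU145 and cell body replicate 2 of MDA231 are among the arrays that stand apart. Without these arrays ESYT2 did not overlap in either line, with changes of -0.47 in DU145 (adjusted p = 0.112) and -0.88 in MDA231 (adjusted p = 0.000932). Of 5 ESYT2 probe sets, 4 were called lower, with changes from -1.06 to -0.82. The fifth, with a mean intensity of 9.97, changed by -0.17 and did not pass.

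STIM1, the calcium sensor of the ER lumen, was the dimmest of the 10 genes. It had 27.7 to 66.7 intensity units (median 47.6) in pseudopod arrays and 64.2 to 141.3 (median 81.9) in cell body arrays, and the fractions overlapped only in MDA231, where cell body replicate 2 had 64.2 and pseudopod replicate 1 had 66.2. Without the arrays that stand apart they did not overlap there either, and the change in MDA231 passed (-0.66, adjusted p = 0.0404, against -0.46 and 0.161 with them). In U251 its values were 45.4, 30.7 and 29.1 in pseudopods, against 88.8, 74.8 and 82.3 in cell bodies. The change was -0.68 ± 0.08 (SE; limma, adjusted p = 2.18e-08), and it passed in U87, U251, HT1080 and MDA435. Since STIM1 is dim, the size of its change depends on the number added before taking logs: it was -0.86 with 1 and -0.42 with 64 in place of 16. The second STIM1 probe set, dimmer still with a mean of 21.1, changed by -0.23 (adjusted p = 0.00769).

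**Figure D2:**
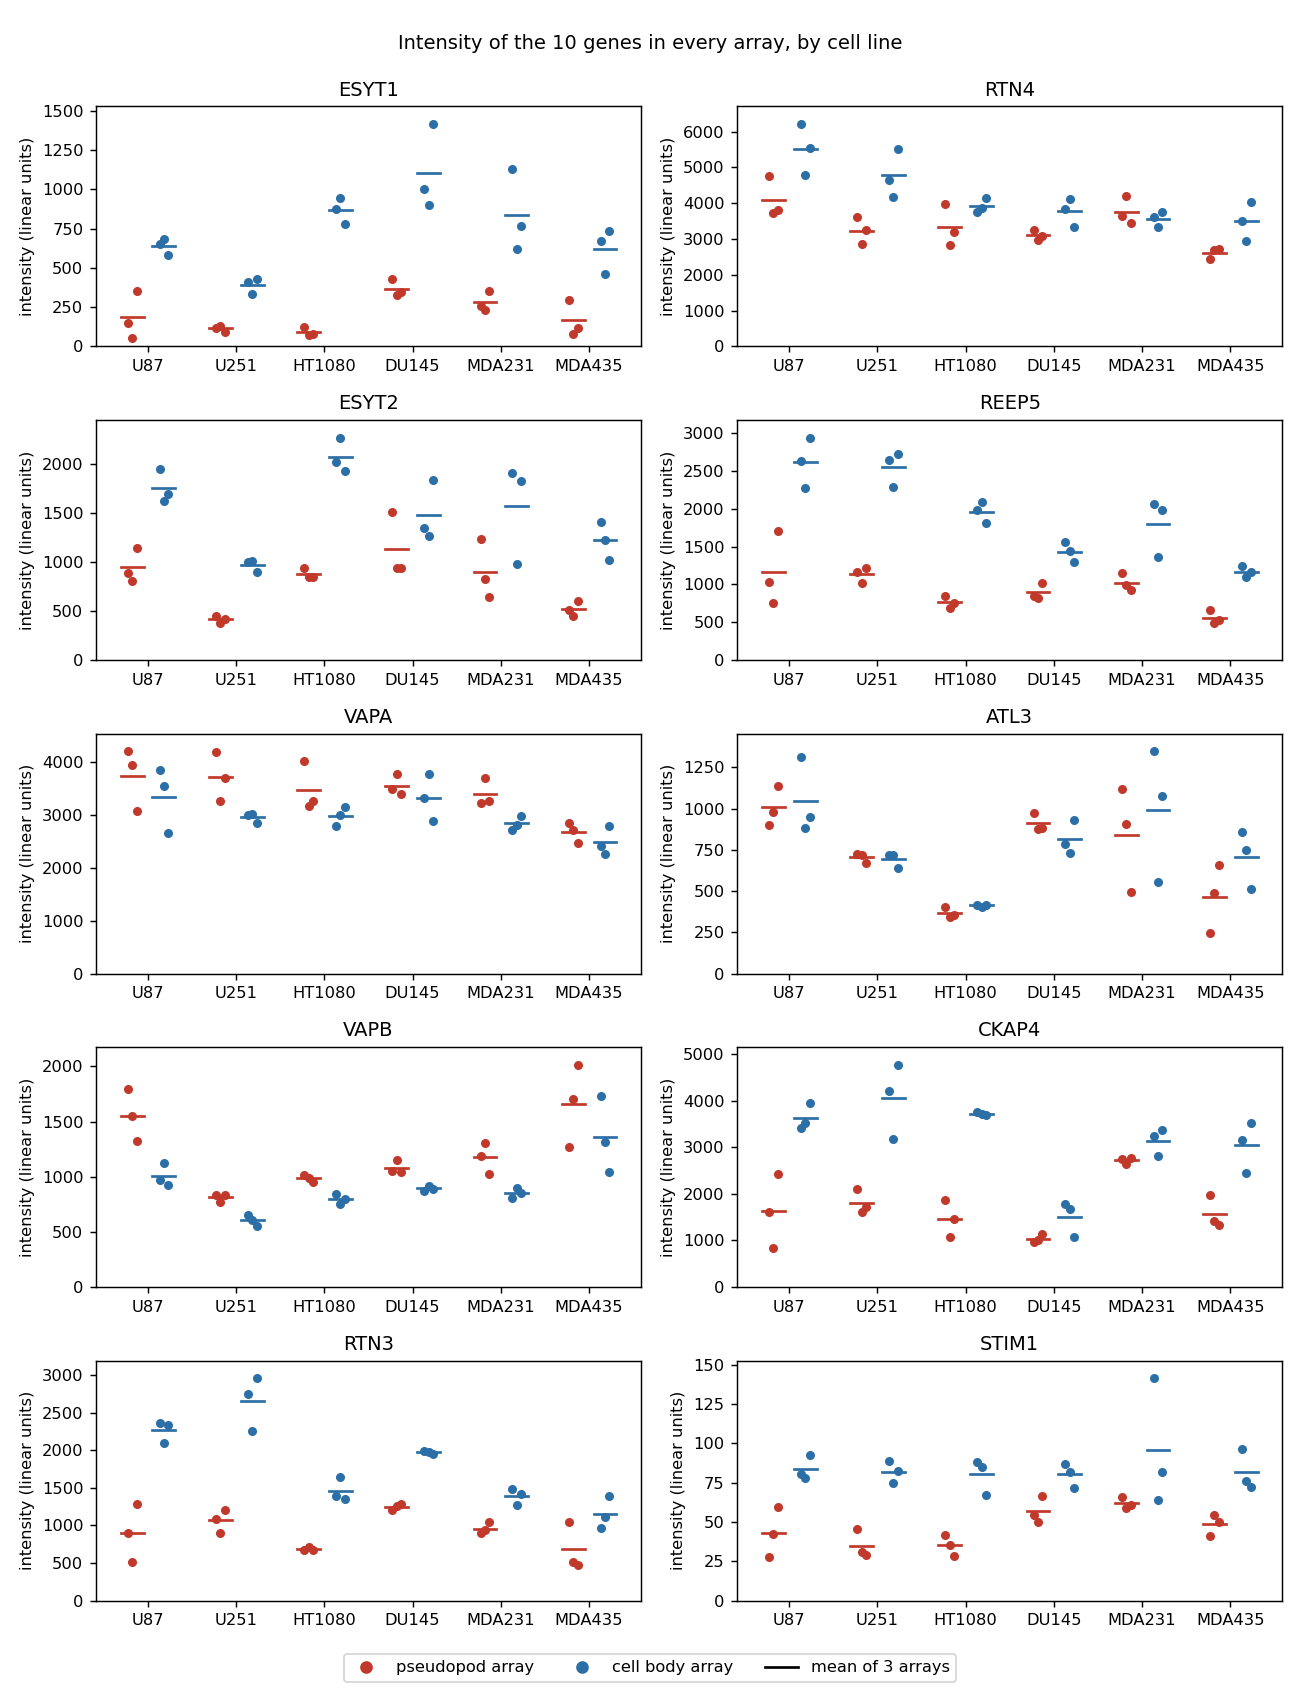
Linear intensity of the 10 genes in each of the 36 arrays (red pseudopod, blue cell body, 3 arrays per line and fraction; bars are means). In ESYT1 and REEP5 the red points lie below the blue ones in all 6 lines, in VAPA and VAPB the red means lie above the blue ones in all 6 lines, and in ATL3 the fractions overlap in all lines but HT1080.

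Among the tubule-shaping genes, REEP5, which bends the ER membrane with a hairpin-like anchor, fell by 1.04 ± 0.08 (SE; limma, adjusted p = 1.41e-11). In HT1080 it had 852.5, 681.7 and 752.1 in pseudopods, against 1978, 2091 and 1811 in cell bodies. In MDA435 it had 664.2, 483.9 and 523.2 in pseudopods, against 1246, 1101 and 1158 in cell bodies. The fractions did not overlap in any of the 6 lines, and the change passed in all lines but DU145 (-0.67, adjusted p = 0.0555), where it passed without the arrays that stand apart (-0.71, adjusted p = 0.0344). In U87 pseudopod replicate 3 REEP5 was at 1706, against 1035 and 753.4 in the other pseudopod arrays, and the change was -1.54 without it and -1.23 with it. Its dimmer probe set fell by 0.86 ± 0.08.

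RTN3 encodes a reticulon that also serves as a receptor for the degradation of ER tubules. It fell by 0.96 ± 0.09 (SE; limma, adjusted p = 1.11e-09), with 923.6 ± 275.8 in pseudopods and 1818 ± 568.1 in cell bodies (SD, n = 18 each). In U251 the arrays had 1089, 902.6 and 1209 in pseudopods, against 2747, 2263 and 2957 in cell bodies. In DU145 they had 1202, 1258 and 1284 in pseudopods, against 1988, 1972 and 1955 in cell bodies. The 2 fractions of DU145 were far apart for their small spread, but with the spread shared by all arrays the change did not pass there (-0.65, adjusted p = 0.118), nor in MDA231 (-0.54, adjusted p = 0.17). The fractions overlapped only in MDA435, where pseudopod replicate 1 had 1051 and cell body replicate 1, an array that stands apart, had 960.4. Without the arrays that stand apart RTN3 did not overlap in MDA435. Both RTN3 probe sets were called lower.

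RTN4 encodes the Nogo proteins, of which the short form is a reticulon of most cells. It had 2441 to 4761 (median 3263) in pseudopod arrays and 2938 to 6211 (median 3956) in cell body arrays. Its fall of 0.31 ± 0.06 (SE; limma, adjusted p = 8.29e-05) was the smallest of the 7, and it did not pass with equal array medians (-0.14, adjusted p = 0.147). It was called within U87 and U251 only, and without U87 pseudopod replicate 3 and the other arrays that stand apart not within U87 (-0.38, adjusted p = 0.091). In U251 RTN4 had 3604, 2852 and 3260 in pseudopods, against 4643, 4172 and 5522 in cell bodies. In MDA231 the values were 3645, 4202 and 3442 in pseudopods, against 3627, 3341 and 3742 in cell bodies, so the fractions overlapped and the change was 0.07 (adjusted p = 0.832). All 4 RTN4 probe sets were called lower, the 3 bright ones by 0.26 to 0.35 and the dim one, with a mean of 41.4, by 0.64 ± 0.10.

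ATL3, a GTPase that fuses ER tubules at junctions, did not pass (-0.15 ± 0.12, SE; limma, adjusted p = 0.301). It had 716.2 ± 276.5 in pseudopods and 778.2 ± 279.2 in cell bodies (SD, n = 18 each), lower in 4 lines and higher in 2. In U251 its values were 724.7, 719.0 and 670.7 in pseudopods, against 717.4, 718.8 and 642.6 in cell bodies, so the fractions overlapped almost fully. In HT1080 they were 405.8, 342.7 and 357.2 against 418.1, 406.1 and 414.0 and did not overlap, by the narrow gap between 405.8 and 406.1. In MDA231 and MDA435 ATL3 differed more within a fraction than between fractions: MDA231 had 1122, 908.2 and 493.4 in pseudopods, against 1348, 552.2 and 1077 in cell bodies. The low values were those of pseudopod replicate 3 and cell body replicate 2, the arrays with the high epithelial sum, whose part in this was not tested. MDA435 had 245.5, 487.2 and 656.7 in pseudopods, against 859.3, 749.3 and 510.7 in cell bodies, lower within each fraction where the epithelial sum was higher. Without the arrays that stand apart the fractions no longer overlapped in DU145 (0.21, adjusted p = 0.709) and MDA435, where the fall passed (-0.81, adjusted p = 0.0202). The MDA435 arrays left out had the highest ATL3 of their fraction, so that fall rests on 2 arrays per fraction. Averaged over the 4 lines other than MDA231 and MDA435, with all their arrays, the change was -0.0036 (adjusted p = 0.971). The bright second probe set changed by -0.05 (adjusted p = 0.754) and the third, with a mean of 17.8, by -0.21 (adjusted p = 0.011).

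CKAP4, the sheet-forming protein that also anchors the ER to microtubules, fell by 0.91 ± 0.10 (SE; limma, adjusted p = 1.71e-08). In HT1080 it had 1868, 1076 and 1463 in pseudopods, against 3752, 3712 and 3697 in cell bodies. In MDA231 it had 2739, 2649 and 2776 in pseudopods, against 3251, 2807 and 3365 in cell bodies. The fractions thus did not overlap in either line, but the change was -1.37 in HT1080 and -0.20 in MDA231, where it did not pass (adjusted p = 0.699). DU145 was the 1 line in which they overlapped (969.2, 1002 and 1148 in pseudopods, against 1788, 1669 and 1083 in cell bodies), and the low cell body array was replicate 3, which stands apart. Without the arrays that stand apart CKAP4 did not overlap there (-0.68, adjusted p = 0.153). Of 3 CKAP4 probe sets 2 were tested, and both were called lower (-0.91 and -0.94). The third, with group means of at most 19.8, was below the filter on dim probe sets.

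VAPB and VAPA, which bind lipid transfer proteins that carry an FFAT motif, were higher in pseudopods in 6 of 6 lines. VAPB had 1793, 1549 and 1322 in U87 pseudopods, against 971.2, 1127 and 927.4 in U87 cell bodies. In U251 it had 833.5, 773.6 and 833.5 in pseudopods, against 656.7, 610.4 and 550.6 in cell bodies. Only in MDA435 did the fractions overlap, with 1271, 1706 and 2015 in pseudopods, against 1736, 1315 and 1041 in cell bodies. Within each of these fractions VAPB was higher in arrays with a lower epithelial sum, and the link was not tested. VAPB rose by 0.39 ± 0.06 (SE; limma, adjusted p = 6.6e-06), and within a line only the rise in U87 passed (0.61, adjusted p = 0.00397). One of its 2 other probe sets also rose (0.42 ± 0.14, adjusted p = 0.0166). The other changed by 0.12 (adjusted p = 0.368), and it is the one that stands for VAPB when marked probe sets are dropped, where the call ended (0.12, adjusted p = 0.379).

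VAPA had 2455 to 4194 (median 3322) in pseudopod arrays and 2256 to 3842 (median 2931) in cell body arrays, and the fractions did not overlap in U251, HT1080 and MDA231, nor in U87 without the arrays that stand apart. In U251 the values were 4177, 3258 and 3694 in pseudopods, against 2992, 3014 and 2844 in cell bodies. Its rise of 0.19 ± 0.06 (SE; limma, adjusted p = 0.00601) passed in no single line, and 3 alternatives ended the call. Quantile normalization gave 0.07 (adjusted p = 0.155), averaging the VAPA probe sets gave 0.03 (adjusted p = 0.645), and dropping probe sets marked as matching several transcripts gave 0.15 (adjusted p = 0.0921). The 5 VAPA probe sets disagreed: the brightest, whose suffix marks it as open to cross-hybridisation, rose, 2 dim ones with means of 61.8 and 19.3 were called lower (-0.24 and -0.17), and 2 did not pass (0.15 and 0.22). A rise of VAPA therefore rests on 1 probe set.

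**Figure D3:**
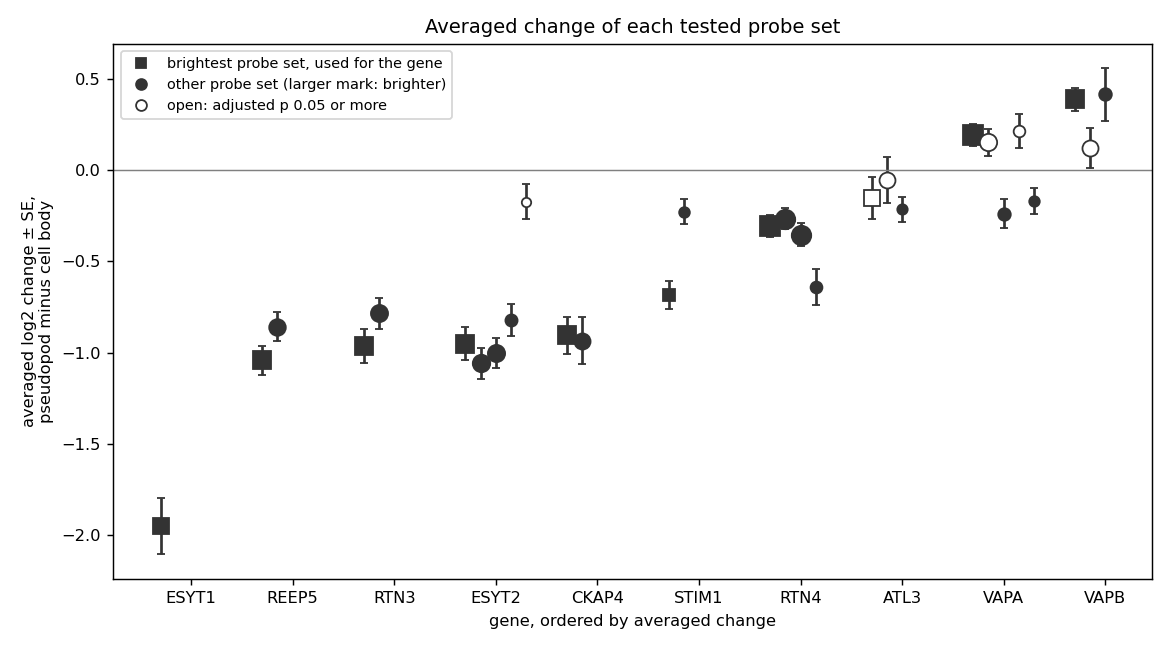
Averaged log2 change ± SE (pseudopod minus cell body) of the 29 tested probe sets, by gene; squares are the brightest probe set of a gene, larger marks are brighter probe sets, and open marks did not pass. The probe sets of ESYT2, RTN3, RTN4, REEP5, CKAP4 and STIM1 all lie below 0, while those of VAPA lie on both sides of it.

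Of the 30 probe sets 29 were tested, and 20 were called lower and 3 higher. Over all 35240 probe sets tested, 24.5% were called lower and 25.4% higher (limma). With the 6 line differences as the units in place of arrays, the same 7 genes were lower and the same 2 higher, against 19.3% and 29.0% of all genes. The highest adjusted p among these 9 was 0.0207, for VAPA.

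Within single lines, 30 of the 60 gene and line pairs were called lower and 1 higher, against 8.17% and 5.82% of all pairs. The 10 genes gave 7 falls in U87 (11.8% of all genes lower), 7 in U251 (9.33%), 6 in HT1080 (12%), 6 in MDA435 (8.81%), 3 in MDA231 (4.90%) and 1 in DU145 (2.16%). Higher calls made up 11.7% of all genes in U87, 5.36% in U251, 12.8% in HT1080, 2.96% in MDA435, 1.18% in MDA231 and 0.825% in DU145, and the 1 rise among the 10 genes was that of VAPB in U87. The median change of the 10 genes ran from -1.05 in U251 to -0.34 in MDA231. Counted without a test, by arrays that do not overlap, 7 genes were lower in U87 (14.3% of all genes), 7 in U251 (16.9%), 7 in HT1080 (18.4%), 6 in MDA435 (12.3%), 5 in DU145 (14.9%) and 4 in MDA231 (11.9%). By the same count 1 was higher in U87 (17.0%), 2 in U251 (22.0%), 2 in HT1080 (29.5%), 0 in MDA435 (12.3%), 1 in DU145 (16.7%) and 2 in MDA231 (9.11%). ESYT1, REEP5, RTN3, CKAP4 and STIM1 were lower without overlap in at least 5 lines (7.24% of all genes) and VAPB was higher in 5 (4.23% of all genes). In MDA231 only ESYT1, ESYT2 and REEP5 were called, and in DU145 only ESYT1. Without the 7 arrays that stand apart, 30 pairs were called lower and 3 higher, against 10.3% and 8.83% of all pairs. ESYT1 and REEP5 were then called in all 6 lines. The falls of RTN4 in U87, and of RTN3 (-0.73, adjusted p = 0.0515) and STIM1 (-0.50, adjusted p = 0.124) in MDA435, kept their direction and did not pass. REEP5 in DU145, STIM1 in MDA231 and ATL3 in MDA435 (-0.81, adjusted p = 0.0202) were added to the falls, and VAPB in MDA231 (0.58, adjusted p = 0.0149) and U251 (0.42, adjusted p = 0.0171) to the rises. With only the 4 arrays of MDA231 and MDA435 left out, CKAP4 did not pass in MDA435 either (-0.80, adjusted p = 0.12).

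The smaller changes in DU145 and MDA231 were not shown to differ from those of the other lines. A limma F test over the 5 line-to-line differences in change called 0 of the 10 genes, against 1.18% of all genes, and 1 gene at an unadjusted p under 0.05, against 10% of all genes. That gene was CKAP4, with the highest F (3.36; adjusted p = 0.316). The result depended on how arrays were weighted. With array weights, which give noisier arrays less influence and were lowest for MDA231 pseudopod replicate 3 (0.221), MDA231 cell body replicate 2 (0.246) and U87 pseudopod replicate 3 (0.269), 5 of the 10 were called (ESYT1, ESYT2, RTN3, CKAP4 and STIM1, adjusted p from 0.00899 to 0.0459), against 15.4% of all genes. With these weights 7 of the 60 pairs were called higher, against 15.1% of all pairs. Without U87 pseudopod replicate 3, CKAP4 was called (adjusted p = 0.0274). Without all 7 arrays that stand apart 0 of the 10 were called, against 6.32% of all genes, and CKAP4 had an adjusted p of 0.104.

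The levels of the genes also differed between lines, as did those of most genes. In cell bodies, 8 of the 10 genes differed between lines (limma F test, adjusted p from 9.29e-06 for VAPB to 0.0201 for ESYT1), against 80.6% of all genes. These shares are close, so the count is no result about the 10 genes. VAPA (adjusted p = 0.0778) and STIM1 (adjusted p = 0.962) did not pass, and the STIM1 means of the 6 lines ran from 80.3 to 95.7 with all neighbours in order overlapping. ESYT1 in cell bodies was highest in DU145 (1106 ± 272.4, SD, n = 3), followed by HT1080, MDA231, U87 and MDA435, with overlapping arrays between each and the next, and lowest in U251 (392.1 ± 48.9). Its order in pseudopods was DU145, MDA231, U87, MDA435, U251 and HT1080, again with each overlapping the next, so that HT1080 was second in cell bodies and last in pseudopods. REEP5 in cell bodies was highest in U87 and U251 (2614 ± 333.1 and 2551 ± 226.7), which overlapped, and lowest in MDA435 (1168 ± 73.1), which stood apart from DU145 above it. CKAP4 in cell bodies was highest in U251 (4048 ± 808.7) and lowest in DU145 (1514 ± 377.3), and RTN3 highest in U251 (2656 ± 355.9) and lowest in MDA435 (1151 ± 216.8). VAPB in cell bodies was highest in MDA435 (1364 ± 350.1), overlapping U87, and lowest in U251 (605.9 ± 53.2), below the range of HT1080. ATL3 in cell bodies was highest in U87 (1049 ± 233.0) and lowest in HT1080 (412.7 ± 6.10), apart from all others, and ESYT2 highest in HT1080 (2073 ± 176.0) and lowest in U251 (972.2 ± 63.3). RTN4 in cell bodies was highest in U87 (5516 ± 704.5) and lowest in MDA435 (3492 ± 551.0). Without the 7 arrays that stand apart the same 8 genes differed, against 82.6% of all genes. Of the highest and lowest lines named here for cell bodies 1 changed, ATL3 then being highest in MDA231 (1212), and ESYT1 in HT1080 then stood below DU145 and MDA231. In pseudopods the order of ESYT1 was then DU145, MDA231, MDA435, U251, U87 and HT1080.

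The 3 pairs of related genes were compared by their changes, with the 6 lines as units. The change of ESYT1 minus that of ESYT2 averaged -1.004 ± 0.48 (SD, n = 6 lines), with ESYT1 lower in 6 of 6 lines, from -1.83 in HT1080 to -0.46 in U251. The change of RTN3 minus that of RTN4 averaged -0.66 ± 0.23, with RTN3 lower in 6 of 6 lines. The change of VAPA minus that of VAPB averaged -0.19 ± 0.13, also of 1 sign in 6 of 6 lines, but it turned to 0.032 when marked probe sets were dropped. Each pair gave p = 0.03125 in a two-sided exact permutation test over signs of the lines (adjusted p = 0.03125 over 3 pairs), the smallest value that 64 sign patterns can give. All 3 pairs were picked with earlier results of these data known, the fall of ESYT1 among them, so their differences are a description. Probe sets differ in their response, so these are differences in measured change and not in level.

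The 10 genes were set in their wider families through lists that overlap them, and each count is to be read against the 20.8% of all genes called lower and the 29.5% called higher. In the list for ER tubules and sheets, 18 of 23 tested genes fell and 1 rose (median change -0.71). Outside the 10 genes these were 14 falls and 1 rise of 18. RRBP1, the ribosome-binding protein of ER sheets, fell by 1.501 ± 0.12 (SE), TMEM33, a reticulon-binding membrane protein, by 1.31 ± 0.11, ZFYVE27 (protrudin), a tubule protein that promotes neurite growth, by 1.26 ± 0.09, and REEP4, which clears ER from mitotic chromosomes, by 1.25 ± 0.12. The 1 riser, named after its value was seen, was the GTPase gene RAB18 (0.30). Of 9 ER-phagy receptors, which mark ER pieces for degradation, 7 fell and 0 rose (median -0.80). CCPG1 fell by 1.83 ± 0.15, RETREG2 by 0.84 ± 0.08, RETREG1 by 0.83 ± 0.16 and TEX264 by 0.80 ± 0.09.

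Of 27 genes for ER to plasma membrane contacts and store-operated calcium entry, 14 fell and 3 rose (median -0.27). Outside the 10 genes these were 11 falls and 3 rises of 24 (median -0.14). Once array medians were made equal, the 27 genes gave 11 falls and 7 rises (median -0.16), against 15.8% and 44.1% of all genes. STIM2, the relative of STIM1 that responds to small losses of luminal calcium, fell by 1.13 ± 0.09 (SE), and the lipid transfer gene C2CD2L (TMEM24) and its relative C2CD2 fell by 1.09 ± 0.15 and 0.96 ± 0.10. SARAF, which inactivates store-operated entry, fell by 0.57 ± 0.06. The 3 channel genes ORAI1 (-0.34), ORAI2 (-0.48) and ORAI3 (-0.51), named after their values were seen, were all called lower. The 3 risers, also named after their values were seen, were TMCC2 (0.32), OSBPL6 (0.20) and OSBPL8 (0.17). Of 16 genes for ER to mitochondria contacts, none of which is among the 10, 9 fell and 5 rose (median -0.57). Its share of rises, 5 of 16, is close to that of all genes. Among the fallers were RRBP1, the ER chaperone and transport gene BCAP31 (-1.34 ± 0.11), the ER calcium channel ITPR1 (-1.02 ± 0.12) and the lipid transfer gene PDZD8 (-0.89 ± 0.08). The 5 risers, named after their values were seen, were FIS1 (0.61), PTPN1 (0.31), MFN2 (0.31), VDAC1 (0.29) and FUNDC1 (0.25).

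Of 29 tested genes of the VAP family and its FFAT-motif partners, 6 fell, 9 rose and 14 did not pass, with a median of 0.0049. These shares are close to the 20.8% and 29.5% of all genes and are no result about the family. ZFYVE27 fell as above, the bridge-like lipid transfer genes VPS13C and VPS13A fell by 1.25 ± 0.10 and 1.10 ± 0.08 (SE), and RMDN3, a mitochondrial tether, by 0.86 ± 0.10. Among the risers, named after their values were seen, were SNX2 (0.49), MOSPD3 (0.36), PTPN1 (0.31) and OSBPL10 (0.29). Of 31 tested genes for tail-anchored proteins, which include VAPA and VAPB, 25 rose and 0 fell (median 0.31). HMOX2, a haem oxygenase of the ER, rose by 0.82 ± 0.10, FIS1, a mitochondrial outer membrane protein, by 0.61 ± 0.07, the SNARE gene STX18 of the ER by 0.49 ± 0.09 and the vesicle SNARE gene VAMP2 by 0.48 ± 0.10. Called rises numbered 29 once array medians were made equal (44.1% of all genes higher, 15.8% lower) and 20 after quantile normalization (33.7% higher, 18.2% lower), with 0 falls in both. These lists were drawn up with earlier results of these data known and are no independent support.

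**Figure D4:**
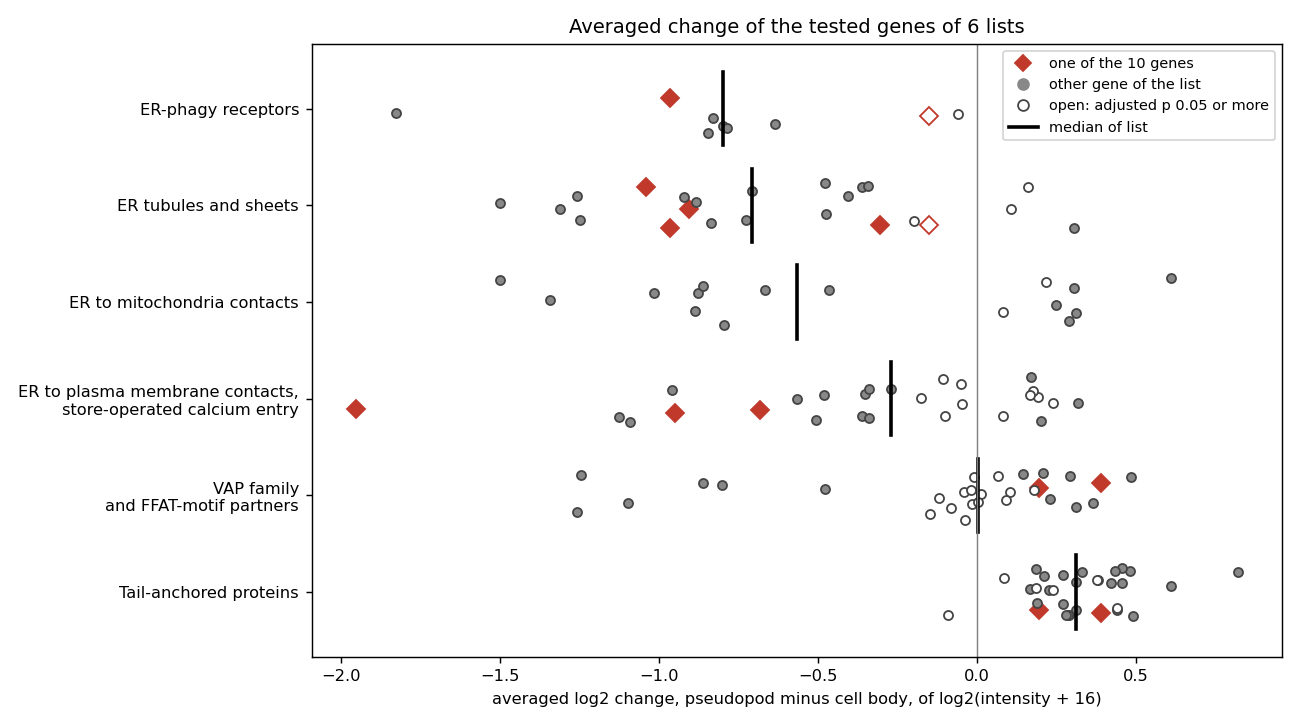
Averaged log2 change (pseudopod minus cell body) of each tested gene of 6 lists; red diamonds are the 10 genes, open marks did not pass, and black bars are list medians. ER-phagy and tubule and sheet genes lie mostly left of 0 (medians -0.80 and -0.71) and tail-anchored genes right of it (median 0.31), with VAPA and VAPB among the last.

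Over the 36 arrays, the genes that fell were correlated with each other to differing degrees. These correlations describe arrays that share lines and fractions and carry no test. Pearson's r was 0.88 between RTN3 and REEP5, 0.83 between ESYT1 and STIM1, 0.78 between ESYT1 and ESYT2 and 0.78 between RTN4 and REEP5. VAPB ran against RTN3 (-0.69) and REEP5 (-0.65), and r was -0.04 between VAPA and VAPB. Among all tested genes, the pattern most like that of ESYT1 was that of SPTLC2, a subunit of the ER enzyme that starts sphingolipid synthesis (r = 0.96 over 36 arrays), followed by MIA3, an ER export receptor for collagen (r = 0.95). REEP5 was most like WLS, the carrier of Wnt proteins (r = 0.95), and VCL (r = 0.94), RTN3 most like TMED2 and ADAM9 (r = 0.94 each), ESYT2 most like GPAT3 and LOXL2 (r = 0.920 and 0.905), CKAP4 most like HSD17B12 and PRRC2C (r = 0.92 and 0.90) and STIM1 most like BTN3A1 and PANX1 (r = 0.89 each). RTN4 was most like DAD1 and TMEM50A (r = 0.88 and 0.86), ATL3 most like NIBAN1 and CCDC88A (r = 0.87 and 0.85), VAPB most like RRP7A and PSME3 (r = 0.92 each) and VAPA most like PPP2CA and RTRAF (r = 0.86 and 0.84).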

How the data were processed

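Per the labels' protocols, 100 ng of total RNA per sample was amplified and labelled with biotin in 2 cycles. Each deposited number is a linear intensity of a probe set. RMA and Partek appear in the submitters' processing notes, but what each did is not stated there. Output of RMA would be on a log2 scale, unlike these values, and which program made them is not given in the sources used. The values run from 0 to 9883.2, and each array's mean without the outer 2% at each end lies between 149.18 and 149.59, so arrays were scaled to a common mean.

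From these, log2(intensity + 16) was computed. Symbols came from the platform annotation, updated by Entrez number through RefSeq's gene table (41020 of 41074 probe sets with 1 symbol). Each gene was represented by its brightest probe set, and a gene was tested when at least 1 group averaged 24.4 or more, which is the median intensity (15399 genes). All 36 arrays entered 1 fit of 12 group means (limma 3.58.1 in R 4.3.3; 24 residual degrees of freedom), with p-values adjusted over all genes (Benjamini-Hochberg, threshold 0.05), and the code was tested on simulated data. A second fit used all probe sets. Figures were drawn in Python 3.11.15. Named beside the 10 genes are, per list, up to 4 called genes with the largest change, and for each gene the 2 most correlated ones. RAB18, the ORAI genes, TMCC2, OSBPL6, OSBPL8, the risers of the VAP and mitochondria contact lists and marker genes were named after their values were seen. The members, lists and tests were chosen with earlier results of these data known. Protein sequences were not used here. The number of arrays limits the precision.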

Additional observations from a re-analysis of the deposited data

How the results depend on the processing

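Of the 7 falls and 2 rises, all kept their direction under each alternative that gave a value. Equal array medians ended the call of RTN4 and turned that of ATL3, which was not called, to 0.0098. Genes called higher numbered 1 with quantile normalization, 1 with the mean of all probe sets and 0 without the marked probe sets, where 3 of the 6 genes that still had a probe set fell and 9 gene and line pairs were called lower. VAPA minus VAPB turned to 0.032 there (exact permutation test, adjusted p = 0.562). ESYT1, RTN3, REEP5 and CKAP4 have marked probe sets only and gave no value there. STIM1 gave no value when a highest group mean of at least 100 was required, and 6 genes were then called lower. With array weights 5 genes differed between lines. Gene and line pairs called higher, 1 as reported, numbered 2 with group means of at least 100, 0 with the mean of all probe sets and without the marked ones, 7 with array weights, 2 without MDA231 and MDA435, 0 without U87, 3 without MDA435, 3 without the 2 MDA435 arrays that stand apart and 3 without all 7 such arrays. Without MDA231 and MDA435 the pairs of related genes differed by -1.14 (ESYT), -0.20 (VAP) and -0.73 (RTN), with adjusted p = 0.125, the smallest 4 lines allow in the exact permutation test. Omitting lines other than this, or the arrays that stand apart, was decided after seeing the data. The cause of each of these shifts was not tested.

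Leaving out each of the 36 arrays in turn changed no averaged call of the 10 genes. Pairs called higher ran from 1 to 3 (more than 1 without MDA231 pseudopod replicate 3, MDA435 pseudopod replicate 1 or MDA435 cell body replicates 1 or 3), genes that differed between lines from 0 to 1, and VAPA minus VAPB from -0.23 to -0.15, not passing without MDA435 pseudopod or cell body replicate 3 (exact permutation test, adjusted p = 0.0625 at the highest). With line and replicate number as a replicate block, 7 genes fell and 2 rose, and all-gene calls were 2969 lower and 4085 higher, against 3204 and 4550 without it. The block changed no averaged call of the 10 genes. The labels do not say whether equal numbers pair the fractions. Of 18 same-numbered pairs, 4 had deviations correlated above 0.1 (range -0.78 to 0.69), and 3 of 18 correlated best with their own number. With 3 arrays per group these correlations cannot settle whether the fractions are paired. The share of calls that were higher was 58.7% on the values as they are, 73.6% once array medians were made equal and 64.9% after quantile normalization. Dim probe sets such as those of STIM1 lie near the number added before logs, which limits the size of their change.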
